A study of Oncorhynchus mykiss with 16 samples.

Results

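The comparison of day 15 with day 8 in cultured rainbow trout (Oncorhynchus mykiss) preadipocytes covers the period in which the cells were first given the medium that induces differentiation. It compares 8 of the 16 one-colour arrays of the series, those titled Day 8 and Day 15, with 4 arrays at each day. The model was fitted to all 16 arrays, so the other days also enter its estimate of the spread and the choice of tested probes. At both days the arrays come from cultures 4, 8, 9 and 10, so each culture gives 1 pair. A culture started from the visceral white adipose tissue of a pool of 6 to 7 fish, so an array describes a mixture of several animals, and 1 flask was extracted for each condition. The day 8 cells were confluent cells kept at 18°C in growth medium (Leibovitz's L-15 with fetal bovine serum and glutamine). From then on the medium also held insulin (10 µg/mL), IBMX (0.5 mM), dexamethasone (0.25 µM) and a lipid mixture (10 µL/mL), and the day 15 cells had been in it since confluence. No array comes from cells kept in growth medium to day 15, so the effects of the medium and of longer culture cannot be told apart. In RNA from a whole flask, a change in the number of cells of one kind and a change of RNA within each cell cannot be told apart either.

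Adipocyte differentiation is best known from mammalian preadipocyte lines, where a similar mixture is used. Insulin acts through insulin and IGF receptors, dexamethasone is a ligand of the glucocorticoid receptor, and IBMX blocks phosphodiesterases and so raises cyclic AMP. In mammals these signals act through transcription factors of the C/EBP family on PPAR gamma, the nuclear receptor that drives lipid storage genes. Several Wnt proteins keep mammalian precursor cells from differentiating, and protein turnover by calpains, cathepsins and autophagy takes part in the remodelling of the cell.

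The signal of each probe is given here as its level, the log2 of the processed intensity minus the 75th percentile of the same array, so that a level of 0 is the 75th percentile. The percentile lay between 657 and 881 units of intensity at day 8 and between 599 and 729 units at day 15. At day 8, 72.3% to 79.8% of the spots were well above background, and at day 15 the share was 72.7% to 74.2%. Culture 4 at day 8 gave the highest of these shares. Of 60195 probes, 42541 were tested, namely those with a value on every array whose signal stood well above background in each culture on 1 or more of the days. The days were spread over 2 slides. At day 8, culture 4 lay on slide 1 and cultures 8, 9 and 10 on slide 2, whereas at day 15 cultures 8 and 10 lay on slide 1 and cultures 4 and 9 on slide 2. Only culture 9 had both arrays on 1 slide. With slide in the model beside day and culture, 6 of 42541 probes had a Benjamini-Hochberg adjusted p below 0.05 for slide, none of them among the probes called between the days. Almost all probes carry only the identifier of a contig or of a sequence read, so that most of the changes described below cannot be given a gene name.

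Between day 8 and day 15, 260 probes were higher and 282 lower at an adjusted p below 0.02 and a ratio above 3 (limma, 42541 probes tested, culture as a block, n = 4 cultures). The 542 probes called were 1.27% of those tested, 0.611% higher and 0.663% lower. Without the condition on the ratio, 1465 probes were higher and 1039 lower, or 5.89% of those tested. The median differences over all tested probes were -0.03 in culture 4 and -0.01 in culture 8. They were 0.06 in culture 9 and 0.02 in culture 10. Each array was scaled to its own percentile, which largely sets these medians, so they do not show whether the middle of the distribution moved. With the arrays scaled on spike-in controls instead, the median difference was -0.35 ± 0.20 (SD over the cultures). The called probes were higher by a median of 2.05 on the log2 scale and lower by a median log2 difference of -2.03, or 4.07-fold. With probes unmeasured on the lower day set at their bound, the medians were 1.99 and -1.95. Of the 194 higher probes measured well above background on each of the 8 arrays, 25 changed more than 8-fold and 8 more than 16-fold, and of 173 such lower probes 9 and 5 did.

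**Figure D1:**
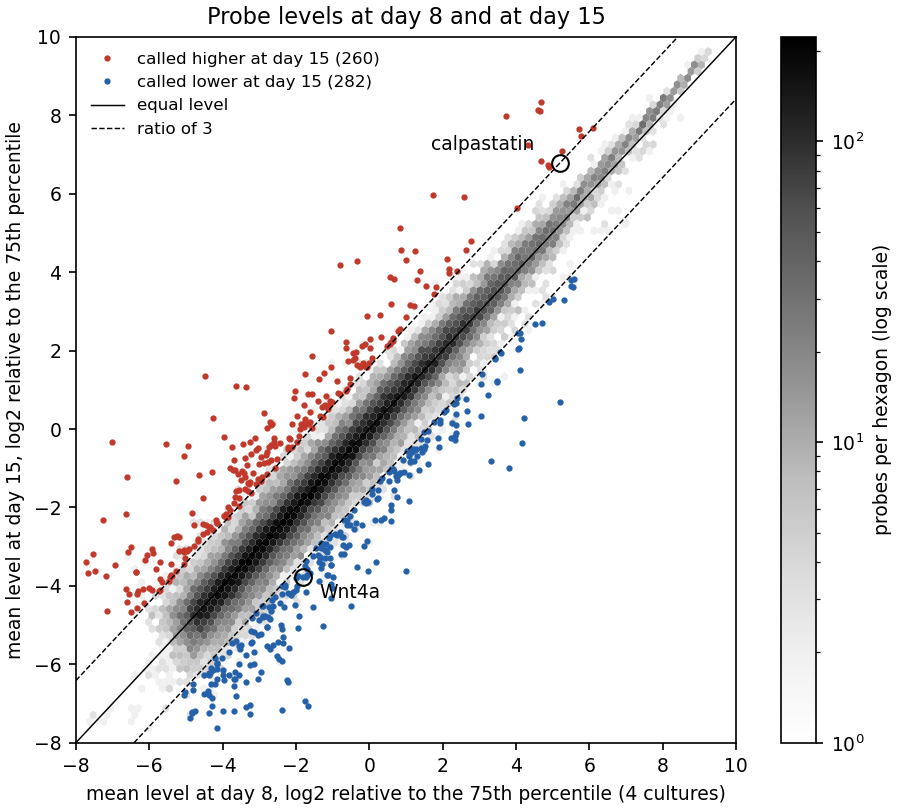
Mean level of each of 42541 tested probes at day 8 (x axis) and day 15 (y axis), log2 relative to the 75th percentile, 4 cultures a day. Grey hexagons count probes on a log scale, and coloured points are the 260 probes called higher and the 282 called lower. Calpastatin lies on the dashed line for a ratio of 3, with a difference of 1.58, and Wnt4a lies below the lower one, with a difference of -1.96.

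The count depended on how the cultures and the dim signals were handled. With 1 mean per day and no culture block, 148 probes were higher and 131 lower. The count was 162 higher and 153 lower without culture 4, 80 and 61 without culture 8, and 74 and 84 without culture 9. Without culture 10 it was 305 higher and 422 lower. A normexp background correction gave 142 higher and 129 lower. When only probes well above background on all 8 arrays were tested, 200 were higher and 187 lower. Among the 542 calls, 20 higher and 40 lower probes were well above background on no array of the lower day. Their changes are only bounded, from 1.83-fold and 1.27-fold upwards, so that not all are shown to pass a ratio of 3. The scale of the arrays also mattered for the balance of the calls. Of the 542 calls 48% were higher, against 13.4% of 1038 calls when the arrays were scaled on spike-in controls, an alternative added after the data had been seen. A fit within 1 slide sets culture 4 at day 8 against cultures 8 and 10 at day 15 (slide 1), or cultures 8, 9 and 10 against cultures 4 and 9 (slide 2), so it also holds differences between cultures. In these fits 0 probes were higher and 1 lower on slide 1, and 1 higher and 0 lower on slide 2 (limma). At an unadjusted p below 0.05 these fits counted 6216 and 6947 probes.

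Direction was shared by the cultures for nearly all called probes, which the call itself favours. Among the higher probes 259 of 260 were higher in each of the 4 cultures, and all 282 lower probes were lower in each, whereas 40.3% of all tested probes moved the same way in 4 cultures. The levels of the 2 days did not overlap for 214 of the higher and 210 of the lower probes, against 12.4% of all tested probes. The higher probes differed by a median of 2.41 in culture 4, 2.17 in culture 8, 2.34 in culture 9 and 1.81 in culture 10. For the lower probes the medians were -2.27, -2.14, -2.00 and -1.94 in the same order. Culture 10 thus gave the smallest median change in both directions, although its differences were included in the choice of these probes.

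A culture left out of the call gives the size of the step without its own differences in that choice. The filter on signal still used all 4 cultures, so the culture left out helped decide which probes were tested. Of 162 probes called higher in cultures 8, 9 and 10, 156 were higher in culture 4, with a median difference of 2.09, and 145 of 153 lower probes were lower there, with a median of -1.68. In culture 8, left out in turn, 79 of 80 higher probes were higher (median 2.29) and 60 of 61 lower probes were lower (median -2.16). In culture 9, 73 of 74 higher probes were higher (median 2.70) and 82 of 84 lower probes were lower (median -1.96). Culture 10 gave the smallest medians in both directions and also the lowest shares with the same sign (93.1% and 91.9%). Its lists of probes were longer than those of the other cultures left out, so different probes are compared. When culture 10 was left out, 284 of 305 higher probes were higher in it with a median difference of 1.195, against 2.11 in the cultures used for the call. Likewise 388 of 422 lower probes were lower in it, with a median of -1.17 against -2.22. For comparison, 47.6% to 54.5% of all tested probes were higher at day 15 in a single culture. A ratio above 3 was reached in culture 10 by 34.4% of the higher and 31.5% of the lower probes. In the other cultures left out these shares were 63.6% to 91.9% and 54.9% to 73.8%, and over all tested probes a ratio above 3 was reached by 1.15% to 2.08% in the higher and 1.83% to 2.98% in the lower direction. Averaged over the 4 cultures left out, the median difference was 2.07 ± 0.63 (SD over the 4 medians) for the higher and -1.74 ± 0.43 for the lower probes. Each median comes from its own list of probes, called in sets of cultures that overlap. The SD is therefore a description and not a spread between independent replicates.

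**Figure D2:**
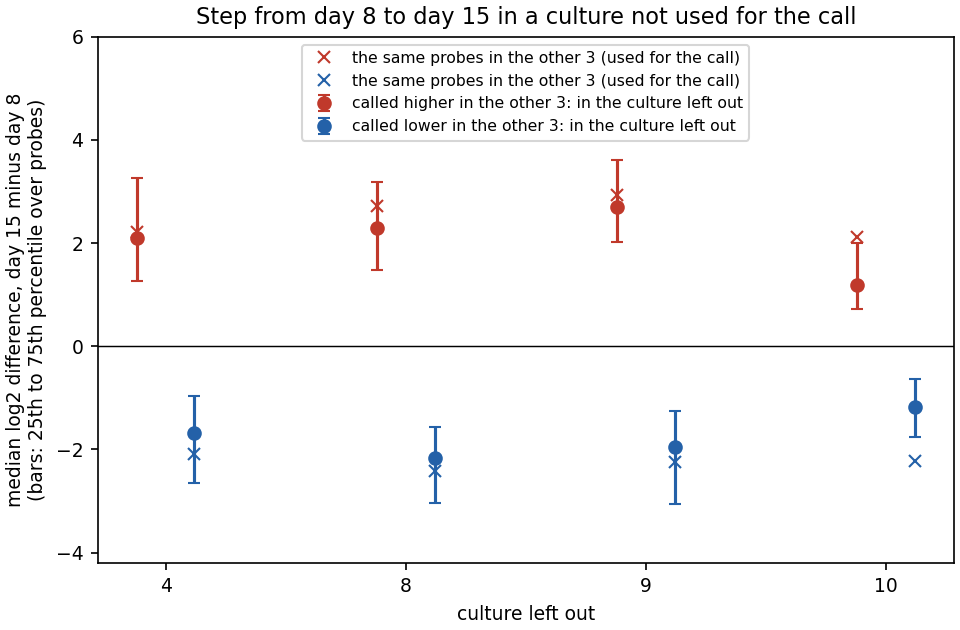
Median log2 difference between day 15 and day 8 (y axis) in each culture left out of the call (x axis), for probes called higher (red) and lower (blue) in the other 3 cultures. Bars span the 25th to the 75th percentile over probes, and crosses give the median of the same probes in the cultures used for the call. Culture 10 has the smallest medians, 1.195 and -1.17.

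Over all tested probes, whether called or not, the spread of the differences was widest in culture 4. The interquartile range of the log2 difference was 0.78 in culture 4, 0.67 in culture 8, 0.66 in culture 9 and 0.67 in culture 10. It kept this order at the top among the 35803 probes that stood well above background on each of the 16 arrays, with 0.73 in culture 4 and 0.61 to 0.64 in the others. Culture 4 was also the culture with the largest share of well measured spots at day 8, and the part of this in its wider spread was not tested. A ratio above 3 was exceeded by 5.06% of the probes in culture 4 and by 3.38% to 3.65% in the others. Across the 42541 probes, which are not independent replicates, the differences of 2 cultures correlated with Pearson's r between 0.42 (cultures 4 and 10) and 0.70 (cultures 8 and 9). The 3 pairs with culture 10 gave 0.42, 0.48 and 0.51. These correlations are a description only, and cultures share the probes' own noise level and the scaling of the arrays.

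The called probes were spread over the whole range of signal. When the tested probes were divided by mean level into 4 equal parts, 0.733% of the dimmest were called higher and 1.05% lower. The shares were 0.592% and 0.649% in the next part, 0.639% and 0.489% in the third, and 0.48% and 0.461% in the brightest. The share passing the adjusted p alone moved the other way, from 3.99% in the dimmest to 7.17% in the brightest, while the median standard error fell from 0.27 to 0.17. Of the higher probes, 194 stood well above background on each of the 8 arrays, and 20 were well above background on none of the 4 arrays of day 8. Their change is only bounded, at a median of at least 3.61-fold (range of the bounds 1.83 to 36.0). Among the lower probes 173 were measured on all 8 arrays and 40 were well above background on none at day 15, with a median bound of at least 2.36-fold (1.27 to 13.3). The identifiers fall into 2 classes, contig numbers (23411 tested probes) and read or clone names (19070 tested probes). The shares called were close in both, at 0.615% and 0.608% higher and 0.649% and 0.676% lower.

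The levels on the other days, which share these arrays' cultures, place the step in the time course. The probes called higher started from a median level of -3.27 (day 3) and -2.79 (day 8) and reached -0.42 (day 15) and -0.15 (day 21). The probes called lower had medians of -1.25, -1.14, -3.33 and -3.30. On balance both sets were thus nearly level between days 15 and 21, with median differences of 0.18 and -0.11. Single probes ranged from -0.83 to 1.43 among the higher and from -1.77 to 2.35 among the lower probes. At day 21, 224 of the 260 higher and 224 of the 282 lower probes were more than 3-fold away from day 8 in the same direction. The same day 8 levels took part in choosing these probes, which favours these counts. The share among all tested probes was not computed. Before the medium was changed the sets had moved little on balance, by a median of 0.35 and 0.00 from day 3 to day 8. Single probes differed widely in this earlier step, from -2.13 to 4.54 among the higher and from -7.17 to 4.18 among the lower probes. The level at day 8 enters both differences, so no relation between them is drawn.

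The largest measured changes belonged to probes without a gene name. The 2 largest rises and 2 largest falls are given, among called probes well above background on all 8 arrays that moved one way in 4 cultures. This choice favours large folds, small p-values and levels that do not overlap. The probe FZ8DYKY01CFTDK.s.om.10 had levels of 0.27, -2.30, -1.12 and -0.06 at day 8 in cultures 4, 8, 9 and 10, and of 6.89, 2.51, 3.22 and 4.14 at day 15. All day 15 levels lay above all day 8 levels, and the fitted difference was 4.99 ± 0.54 (SE), or 31.8-fold (limma adjusted p = 0.000487). TC101749 had levels of -3.25, -4.05, -4.52 and -2.67 at day 8 and of 3.84, -0.09, -0.44 and 1.10 at day 15. Culture 4 exceeded the other 3 at day 15 in both probes, and the second difference was 4.73 ± 0.74, or 26.5-fold (adjusted p = 0.00289). The largest falls were more even between cultures. BX861748.s.om.10 had levels of 3.74, 3.89, 3.14 and 4.44 at day 8 and of -0.98, -0.79, -2.36 and 0.12 at day 15. Its difference was -4.81 ± 0.25, or 28.0-fold lower (adjusted p = 2.85e-06). TC119632 had levels of 0.73, 1.04, -0.01 and 2.23 at day 8 and of -3.80, -3.30, -4.36 and -3.02 at day 15. The groups did not overlap, and the difference was -4.62 ± 0.32, or 24.6-fold lower (adjusted p = 1.72e-05). Among the unnamed probes measured on all 8 arrays, the 15 largest rises differed by 3.42 to 4.99 on the log2 scale and the 15 largest falls by -4.81 to -2.72. BX861748.s.om.10 and TC119632 remained low at day 21, at means of -0.17 and -2.53, and the 2 rising probes remained high, at 4.59 and 1.52.

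Readable gene names were carried by 62 probes, of which 46 were tested. Of these 46, 2 rose and 1 fell at an adjusted p below 0.02, where 3.44% of all tested probes were higher and 2.44% lower. With the ratio above 3 the fall alone was called. Levels of the 2 days did not overlap for 4 of the 46, calpastatin and cathepsine higher and Wnt4a and RARa lower, against 12.4% of all tested probes. In all 4 cultures 10 named probes were higher and 9 lower, beside 21.4% and 18.9% of all tested probes. Names are given as the files spell them. Some break off after the first word, so the enzyme or receptor meant is not stated in full.

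**Figure D3:**
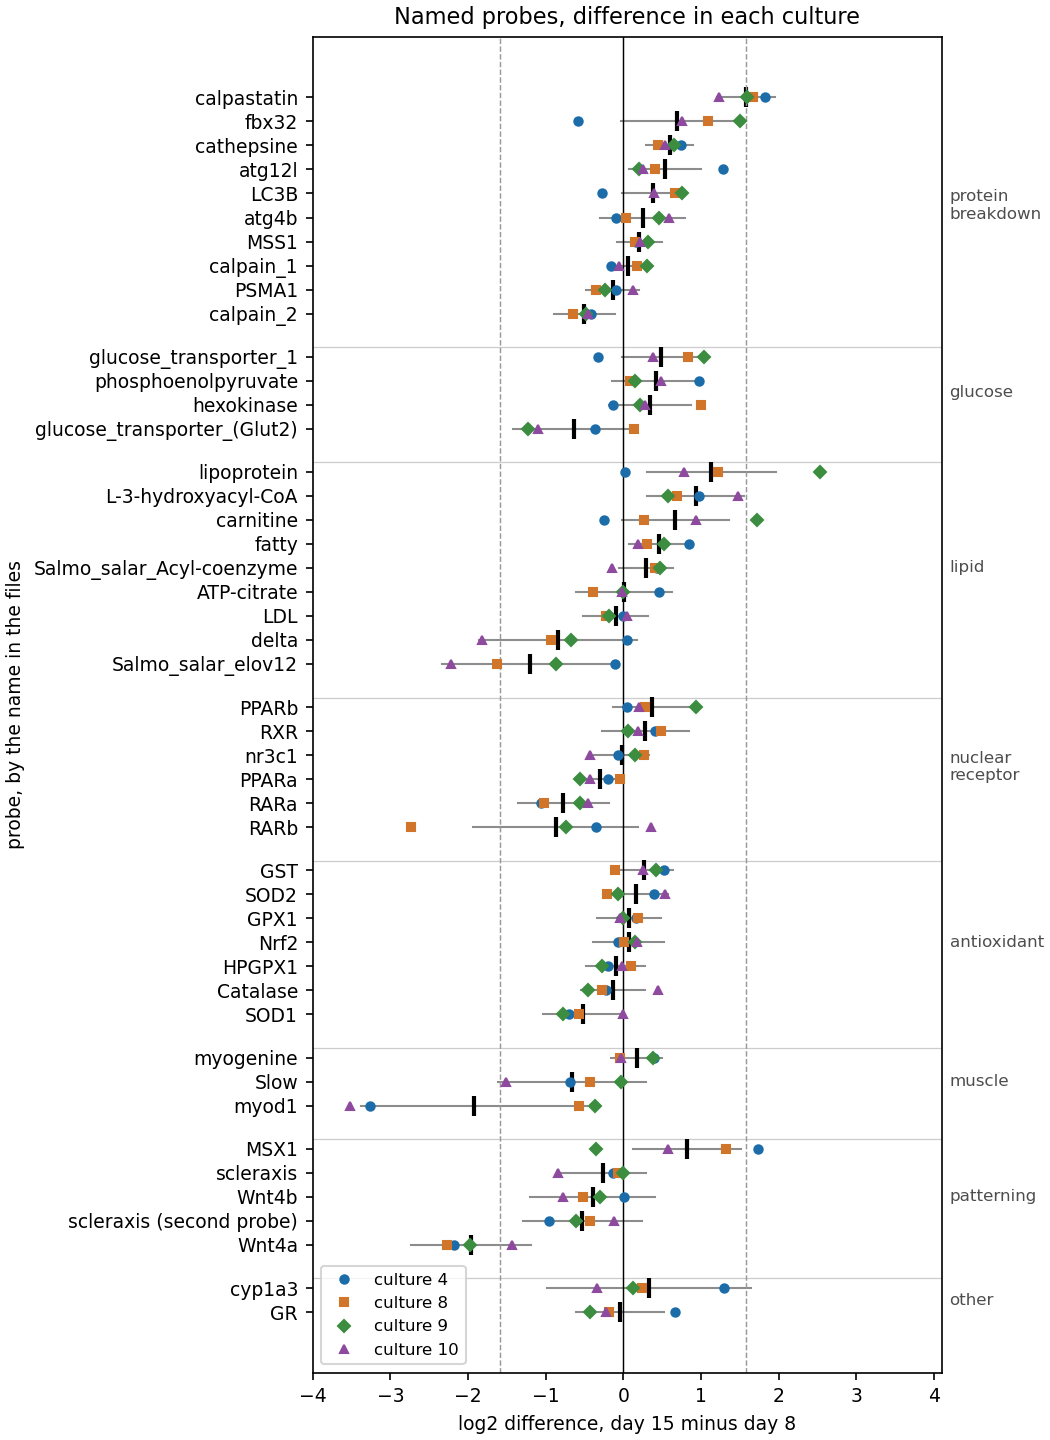
Log2 difference between day 15 and day 8 (x axis) for 46 tested probes with a readable name, ordered by role (y axis). Symbols are the 4 cultures, the black tick is the fitted difference and the grey bar its 95% confidence interval, and the dashed lines mark a ratio of 3. Wnt4a is the single called probe, and calpastatin, at 2.98-fold, ends just inside the line.

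The probes for proteins of protein breakdown held both named rises. Calpastatin is the inhibitor of the calpains, which are calcium-dependent cysteine proteases. Its level was 5.17, 5.25, 5.36 and 5.04 at day 8 in cultures 4, 8, 9 and 10, and 6.99, 6.92, 6.95 and 6.27 at day 15. The groups did not overlap, and culture 10 was the lowest at both days. Calpastatin rose by 1.58 ± 0.17 on the log2 scale, or 2.98-fold, in 4 of 4 cultures (adjusted p = 0.000487), just short of the ratio of 3. Its mean level had been 4.04 at day 3 and was 6.94 at day 21. The ratio of 3 was passed with the deposited values (1.64, adjusted p = 0.000537) and without culture 10 (1.69, adjusted p = 0.000855), and the difference was 1.22 with spike-in scaling. Within slides 1 and 2, where different cultures were compared, it was 1.42 and 1.76.

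The calpains themselves did not pass the test. Calpain_2 was at 4.59, 5.12, 5.33 and 4.32 at day 8 and at 4.165, 4.48, 4.85 and 3.87 at day 15. It was lower in each of the 4 cultures by 0.42 to 0.64, but the groups overlapped, and its fitted difference of -0.50 ± 0.18 had an adjusted p of 0.0973. It passed in 1 of 14 alternatives, spike-in scaling, where its difference was -0.86 (adjusted p = 0.0143). Calpain_1 differed by 0.06 ± 0.12 (95% confidence interval -0.20 to 0.32, adjusted p = 0.788). Within the calpain system, the probe for the inhibitor thus passed the test and those for the 2 proteases did not, and the difference between them was not tested.

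Cathepsine, named for a family of lysosomal proteases without saying which member, was among the brightest named probes. Its level was 7.66, 8.29, 7.73 and 7.82 at day 8 and 8.41, 8.73, 8.37 and 8.36 at day 15. The day 15 levels all lay above the day 8 levels, although culture 8 at day 8 came close to the lowest of them. The rise was 0.59 ± 0.14, or 1.51-fold, in 4 of 4 cultures (adjusted p = 0.0188). It passed narrowly and in 2 of 14 alternatives, with adjusted p from 0.0137 to 0.41. Without the culture block the adjusted p was 0.0486, and with any 1 of the cultures left out it was 0.0445 to 0.136. With the arrays of days 8 and 15 fitted alone in pairs, the limma adjusted p was 0.0343.

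The other probes of protein breakdown did not pass. Fbx32, a muscle ubiquitin ligase subunit in mammals, differed by 0.69 ± 0.33 (adjusted p = 0.197) and was higher in cultures 8, 9 and 10 by 0.757 to 1.497 but at -0.58 in culture 4. LC3B, which coats the autophagosome, followed the same division, with 0.66, 0.76 and 0.39 in cultures 8, 9 and 10 and -0.27 in culture 4 (fitted 0.38 ± 0.19, adjusted p = 0.204). Atg12l, of the conjugation system of autophagy, was higher in all 4 cultures by 0.20 to 1.28, most in culture 4 (0.53 ± 0.22, adjusted p = 0.129). Atg4b, the protease that processes LC3, differed by 0.25 ± 0.25 (adjusted p = 0.571). The proteasome probes PSMA1 and MSS1, a core and a regulatory subunit, differed by -0.14 and 0.21 (adjusted p = 0.618 and 0.348). In all, 8 of the 10 tested differences in this group were above 0, beside 49.5% of all tested probes. Their median was 0.32 against a median near 0 over all tested probes. With spike-in scaling the median of all tested probes itself was -0.35, and the differences of calpain_1, MSS1 and atg4b then lay below 0.

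Wnt4a, a secreted signalling protein of the Wnt family, was the only named probe called. Its level was -2.72, -0.77, -1.61 and -2.10 at day 8 and -4.90, -3.04, -3.59 and -3.54 at day 15. The groups did not overlap, culture 8 was the highest and culture 4 the lowest at both days, and the signal stood well above background on each of the 8 arrays. Wnt4a fell by 1.96 on the log2 scale (SE 0.36), or 3.90-fold, with differences of -2.18, -2.27, -1.98 and -1.44 in the cultures (adjusted p = 0.00583). Day 8 was its highest day, at a mean of -1.80, against -4.83 on day 3, -3.77 on day 15 and -4.81 on day 21. Wnt4a was well above background on only 2 of 4 arrays at day 3 and 3 of 4 at day 21, so those means are not fully measured. The call was lost without the culture block (adjusted p = 0.0291) and without culture 4 (0.0318), culture 8 (0.0585) or culture 9 (0.0342). Within slide 1, where culture 4, the lowest culture, gave the only day 8 array, the difference was -0.57, and within slide 2 it was -2.75. With normexp background correction it was -1.14, a ratio below 3, with an adjusted p of 0.019.

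The second Wnt4 probe, Wnt4b, differed by -0.40 ± 0.37 (adjusted p = 0.53), with levels of -4.02 to -4.51 at day 8 and -4.02 to -4.91 at day 15. The interval of its difference, -1.2 to 0.40, overlaps that of Wnt4a at its edge, and the 2 were not tested against each other. Among the other developmental probes, MSX1, a homeobox factor, was higher in cultures 4, 8 and 10 by 1.73, 1.32 and 0.58 and at -0.35 in culture 9 (0.82 ± 0.32, adjusted p = 0.115). It was well above background on 3 of 4 arrays at day 8. The tendon factor scleraxis had a pair of probes, with differences of -0.26 ± 0.25 and -0.53 ± 0.35 (adjusted p = 0.558 and 0.363).

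**Figure D4:**
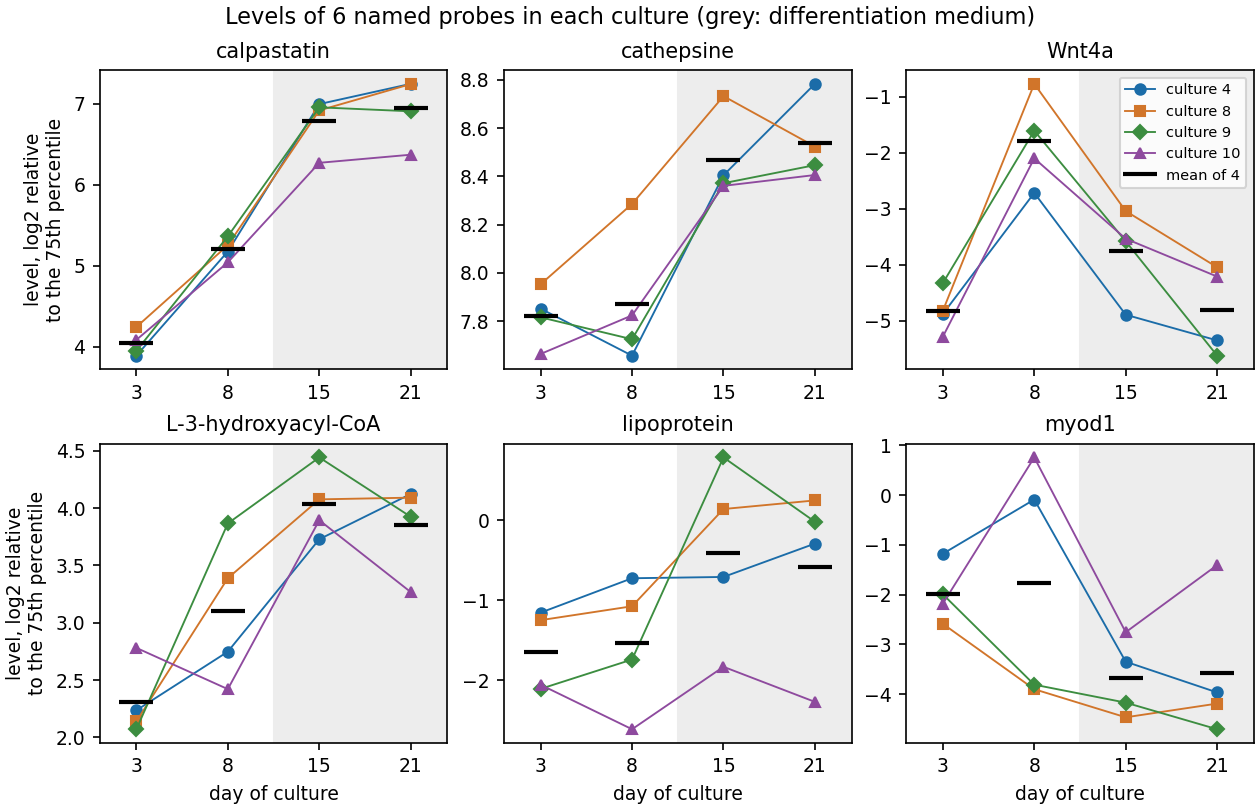
Level (y axis, log2 relative to the 75th percentile, a separate scale in each panel) of 6 named probes in each culture over the 4 days (x axis), with the mean of 4 cultures as a black bar and grey shading for days in differentiation medium. Calpastatin and cathepsine are higher on every array of day 15 than of day 8 and Wnt4a is lower, whereas the days overlap for L-3-hydroxyacyl-CoA, lipoprotein and myod1.

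None of the 9 tested probes of the lipid group passed the test. The group holds only probes with a readable name, so lipid genes measured by probes with an identifier alone are not covered. The largest difference above 0 was that of the probe named lipoprotein, at -0.72, -1.08, -1.74 and -2.61 at day 8 and at -0.71, 0.14, 0.79 and -1.83 at day 15. It was close to unchanged in culture 4, at 0.02, and higher by 1.22, 2.53 and 0.78 in cultures 8, 9 and 10 (1.14 ± 0.38, 95% confidence interval 0.30 to 1.97, adjusted p = 0.0742). The probe named L-3-hydroxyacyl-CoA, the substrate of a dehydrogenase of fatty acid beta-oxidation, was at 2.75, 3.39, 3.87 and 2.42 at day 8 and at 3.73, 4.08, 4.44 and 3.90 at day 15. It was higher in each culture by 0.58 to 1.47, but the level of culture 9 at day 8 lay above that of culture 4 at day 15 (0.93 ± 0.28, adjusted p = 0.0532). In 14 alternatives its adjusted p ranged from 0.0288 to 0.425. These 2 probes missed the threshold with intervals that lie above 0, so that the data do not show them to be without change. The same holds for the probe named fatty, with an interval of 0.07 to 0.85. For Salmo_salar_elov12 the interval lay below 0, at -2.33 to -0.09.

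The probes named Salmo_salar_elov12 and delta, the latter a name that does not state the enzyme, had the lowest differences of the group. Salmo_salar_elov12, spelt like an elongase, was at -1.57, -1.84, -2.49 and -2.28 at day 8 and at -1.68, -3.46, -3.36 and -4.50 at day 15 (-1.21 ± 0.52, adjusted p = 0.151). The probe named delta differed by 0.04, -0.93, -0.68 and -1.82 in cultures 4, 8, 9 and 10 (-0.85 ± 0.47, adjusted p = 0.265). In both probes culture 4 had the difference nearest to 0 and culture 10 the lowest. The probe named fatty was higher in all 4 cultures, by 0.19 to 0.84 (0.46 ± 0.18, adjusted p = 0.116). The probe named carnitine, after the carrier of fatty acids into mitochondria, differed by 0.67 ± 0.32 (adjusted p = 0.195), with -0.24 in culture 4 and 1.72 in culture 9. ATP-citrate, the name under which the enzyme that supplies acetyl-CoA for lipid synthesis begins, differed by 0.01 ± 0.29, LDL by -0.10 ± 0.19 and Salmo_salar_Acyl-coenzyme by 0.29 ± 0.16 (adjusted p = 0.986, 0.8 and 0.268). In this group 6 of 9 tested differences were above 0, with a median of 0.29, beside 49.5% of all tested probes above 0. Those of ATP-citrate and Salmo_salar_Acyl-coenzyme lay below 0 with spike-in scaling.

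The glucose group held 4 tested probes, and none passed. Glucose_transporter_1, the transporter of basal glucose uptake, was at 2.60, 1.99, 2.07 and 1.83 at day 8 and at 2.28, 2.82, 3.11 and 2.21 at day 15. It was higher in cultures 8, 9 and 10 and at -0.33 in culture 4 (0.48 ± 0.23, adjusted p = 0.2). Glucose_transporter_(Glut2), in mammals the transporter of liver and pancreatic beta cells, was at 0.48, -2.44, -1.59 and -1.74 at day 8 and at 0.11, -2.30, -2.81 and -2.84 at day 15. Culture 4 lay well above the other cultures at both days, and the difference was -0.64 ± 0.36 (adjusted p = 0.276). Hexokinase, which phosphorylates glucose, differed by 0.34 ± 0.25, with 1.01 in culture 8 and -0.13 in culture 4 (adjusted p = 0.4), and by -0.017 with spike-in scaling. The probe named phosphoenolpyruvate was higher in all 4 cultures by 0.09 to 0.98 (0.43 ± 0.26, adjusted p = 0.318). Glucokinase and glucose-6-phosphatase, both best known from liver, were each well above background on 1 array of day 8 and on none of day 15, and were not tested.

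The nuclear receptors were represented by 6 tested probes, and none passed. PPARg, the receptor that defines adipocytes in mammals, was well above background on no array of either day, with levels from -8.02 to -7.37 at day 8 and from -7.62 to -6.14 at day 15. The label of the cells could therefore not be checked on this marker, and the probe does not show whether the transcript was absent. PPARa, of fatty acid oxidation, was lower in all 4 cultures, by 0.04 to 0.56 (-0.31 ± 0.14, adjusted p = 0.163). PPARb, the more widely expressed member, was higher in all 4, by 0.04 to 0.93 (0.37 ± 0.23, adjusted p = 0.326), and RXR, their common partner, by 0.05 to 0.48 (0.28 ± 0.26, adjusted p = 0.518), although RXR was at -0.074 with spike-in scaling. RARa, a retinoic acid receptor, was at -2.64, -3.22, -3.44 and -3.21 at day 8 and at -3.69, -4.24, -3.996 and -3.66 at day 15. Its groups did not overlap and it was lower in all 4 cultures, but its difference of -0.77 ± 0.27 did not pass (adjusted p = 0.0838). It passed in 1 of 14 alternatives, spike-in scaling (-1.13, adjusted p = 0.0101), where the median of all tested probes was itself -0.35. With normexp background correction the difference of RARa was -0.23 (adjusted p = 0.458). RARb differed by -0.87 ± 0.49 (adjusted p = 0.272) and was measured above background on 3 of 4 arrays at day 8.

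The receptor of dexamethasone was among the probes with the smallest differences. Nr3c1, the gene of the glucocorticoid receptor, was at 1.595, 1.85, 1.84 and 1.83 at day 8 and at 1.53, 2.11, 1.99 and 1.39 at day 15. The difference was -0.02 ± 0.16, with a 95% confidence interval of -0.37 to 0.33 (adjusted p = 0.948). The probe named GR, an abbreviation shared by the glucocorticoid receptor and glutathione reductase, differed by -0.04 ± 0.26 (adjusted p = 0.942), with 0.67 in culture 4 and -0.43 to -0.18 in the others.

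The probes of antioxidant defence varied little. The 7 tested probes differed by -0.52 to 0.27, and none passed. SOD1, the cytosolic superoxide dismutase, was at 4.83, 4.73, 4.60 and 3.71 at day 8 and at 4.12, 4.15, 3.81 and 3.71 at day 15. Cultures 4, 8 and 9 were lower at day 15 by 0.58 to 0.78, while culture 10 was already at that level at day 8 (-0.52 ± 0.24, adjusted p = 0.184). Without culture 10 the difference was -0.69 and passed, with an adjusted p of 0.0121. Catalase, which breaks down hydrogen peroxide, was also lowest in culture 10 at day 8 (-1.70 against -0.76 to -0.61). The mitochondrial SOD2, the glutathione peroxidases GPX1 and HPGPX1, the glutathione transferase GST and the transcription factor Nrf2 differed by -0.10 to 0.27 (adjusted p = 0.336 to 0.875), and with spike-in scaling SOD2, GPX1, GST and Nrf2 changed sign. Cyp1a3, a cytochrome P450 that responds to aromatic hydrocarbons, differed by 0.33 ± 0.61 (adjusted p = 0.778), with 1.30 in culture 4 and -0.34 in culture 10.

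Markers of muscle, a tissue whose precursors could accompany a primary culture, were measured by 11 probes, of which 3 were tested. Myod1, a myogenic transcription factor, was at -0.09, -3.90, -3.81 and 0.76 at day 8 in cultures 4, 8, 9 and 10, and at -3.35, -4.47, -4.17 and -2.76 at day 15. It was thus high in cultures 4 and 10 at day 8 and low on the other 6 arrays. The differences were -3.26 and -3.51 in those 2 cultures and -0.56 and -0.36 in the others, with a fitted value of -1.93 ± 0.67 that did not pass (adjusted p = 0.0816). Myogenine, which acts later in myogenesis, did not share this pattern, at -3.20 to -2.63 at day 8 and -3.05 to -2.24 at day 15 (0.17 ± 0.15, adjusted p = 0.499). The probe named Slow, after a slow muscle isoform, varied more between cultures than between days, from 0.11 to -3.18 at day 8 and from -0.32 to -4.69 at day 15 (-0.66 ± 0.44, adjusted p = 0.356). Of the other muscle probes, Pax7, mrf4, skelemin and fast_mlc1 were well above background on none of the 8 arrays. Myf5 was so on 1, culture 4 at day 15, where its level of -2.55 stood against -7.84 to -7.15 in the other cultures. Fast_mlc3 stood well above background on each of the 8 arrays, with means of 0.25 ± 0.79 (SD) at day 8 and 0.17 ± 0.10 at day 15, but lacked a value on 1 array of day 3 and was not tested. Fast_myosin and a second probe named slow were well above background on 4 and 5 of the 8 arrays and were not tested. Of the remaining named probes, VLDL and Salmo_salar_elovl5b were well above background on none of the 8 arrays, nhe3 and rhbg2a on 1 and Sox5 on 5. The markers looked for of fibroblasts, endothelium, blood cells, epithelium and bone carry no readable name in the files. The same holds for the adipocyte markers CEBPA, FABP4, PLIN1, PLIN2 and CIDEC.

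The scaling assumes that the 75th percentile of an array is comparable between days, and the Agilent spike-in controls offer a second scale. These are transcripts of the adenoviral E1A gene, which is foreign to trout. The sources used here do not state the amount added. Of 10 such controls, 9 were well above background on every array of the series. Their median level relative to the 75th percentile was higher at day 15 than at day 8 by 0.12 in culture 4, 0.23 in culture 8, 0.46 in culture 9 and 0.63 in culture 10. The mean was 0.36 ± 0.23 (SD, n = 4), higher in 4 of 4 cultures, with an exact two-sided sign-flip p of 0.125, the smallest that 4 pairs allow. Among the single controls, 8 of the 9 had mean differences between 0.31 and 0.41, and r60_3 differed by -0.34 and was lower in all 4 cultures. Relative to the spike-in controls, the median of all tested probes was lower at day 15 by 0.35 ± 0.20 on the log2 scale, and 139 probes were called higher and 899 lower. Calls relative to the 75th percentile are therefore changes relative to the bulk of the probes. Whether RNA input, labelling or the amount of spike-in transcripts differed between the days was not tested.

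**Figure D5:**
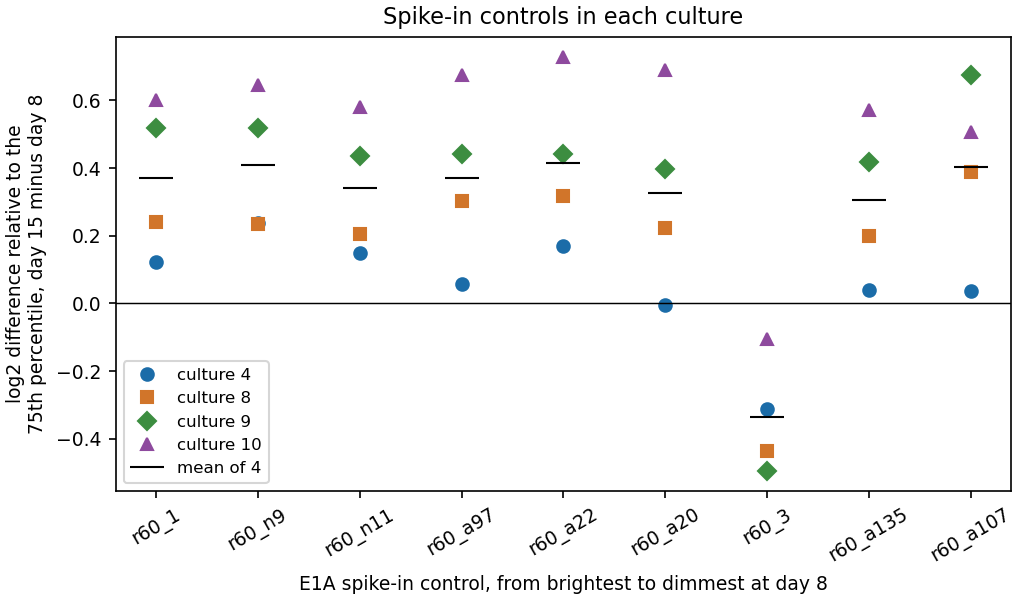
Log2 difference between day 15 and day 8 (y axis, relative to the 75th percentile) of the 9 E1A spike-in controls well above background on every array (x axis), with 1 symbol per culture and the mean of 4 as a bar. Culture 10 is highest for 8 of the 9 controls, and r60_3 is the single control below 0 in all cultures.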

How the data were processed

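RNA of 4 rainbow trout preadipocyte cultures at days 3, 8, 15 and 21 was labelled with Cy3 from 150 ng of total RNA and hybridised to 16 one-colour Agilent arrays. The authors extracted spot intensities with Agilent Feature Extraction 10.7.3.1 (per the submitters' processing notes), and the deposited processed intensity is background-subtracted and not normalized between arrays. The authors also deposited log2 values, which equal the log2 of these intensities minus 1 constant per array within 0.001 for 100% of 60195 probes, with equal medians. All 16 value columns were matched to samples by name. The number of arrays limits the precision.

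Control and outlier spots (6 to 272 per array at days 8 and 15) were left out, spots of one probe were averaged as log2, and the 75th percentile of each array over its probes was subtracted. limma 3.58.1 in R 4.3.3 was fitted to all 16 arrays with 4 day means and culture as a block. Probes with no value on an array (1050) were not tested. The study's limits were used for calls, a p of 0.02 (here adjusted by Benjamini-Hochberg) and a ratio of 3. Same-numbered arrays come from one pool of cells, which pairs them. Deviations of days 8 and 15 from their day means correlated across probes at 0.47 to 0.58 in each culture. Where no array of the lower day measured a probe well above background, its fold is a bound against the higher of its own level and the lowest level well above background on each array. Simulated data had independent normal noise with each probe's own spread and culture effects with an SD of 0.3. In them 200 of 42541 probes were changed, alike in all cultures, and the others not at all. The fit called 88% of 4-fold and 95% of 8-fold changes, with 0 false calls. The simulation held no noise shared between probes and no differences in response between cultures, so it does not give the error rate of the calls.

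Named probes are those with a readable name in the files, or with a RefSeq accession found in the table of the assembly USDA_OmykA_1.1 (4 of 7 accessions), used for names only, together with the 2 largest rises and falls among unnamed probes measured on all 8 arrays and moving one way in 4 cultures. Another 12 probes with a GenBank accession and 2 with a name that names no gene were left unnamed. The members and lists were chosen with earlier results of these data known. The alternatives were other blocks, backgrounds, scalings, filters and thresholds, slide, the methods' ANOVA and each culture left out. Spike-in scaling and the fits within a slide were added after seeing the data. The normexp correction used the median signal, with an offset of 50. Figures were drawn with Python 3.11.15, pandas 2.3.3, numpy 2.4.6 and matplotlib 3.10.9.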

Additional observations from a re-analysis of the deposited data

Results flagged for a closer look

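In groups of 4 cultures, a value was singled out where its gap to the nearest of the others was above Dixon's limit as a share of the group's range. Of 142 groups examined 11 were singled out, and chance singles out about 1 in 20.

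Culture 10 stood apart in 5 of them. Its calpastatin level at day 15 was 6.27 against 6.92 to 6.99 (gap 0.893 of the range). At day 8 its levels of Catalase (-1.70 against -0.76 to -0.61, 0.856) and GST (6.17 against 6.62 to 6.70, 0.84) were the lowest. Its difference between the days was the lowest for Salmo_salar_Acyl-coenzyme (-0.15 against 0.41 to 0.48, 0.894) and for the first scleraxis probe (-0.84 against -0.13 to 0.00, 0.84).

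Culture 4 stood apart in 4. Its atg4b level at day 8 was -3.15 against -4.81 to -4.53 (0.831), its level of the probe named GR at day 15 was 3.37 against 1.97 to 2.17 (0.862), and its nr3c1 level at day 8 was 1.595 against 1.83 to 1.85 (0.896). Its interquartile range of the differences was 0.78 against 0.66 to 0.67 (0.872). Culture 8 had the highest cathepsine level at day 15, 8.73 against 8.36 to 8.41 (0.883), and culture 9 the highest PPARa level at day 15, -2.36 against -2.85 to -2.79 (0.875).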

How the results depend on the processing

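The counts of 260 higher and 282 lower probes stayed within 1.5 times in both directions with days 8 and 15 fitted alone in pairs, culture as a random block, slide, quantile normalization, the percentile over well measured probes, median scaling, no filter, outlier spots kept, the deposited values and the methods' test of days 8 and 15 unadjusted (239 and 291). They were 148 and 131 with no replicate block, 82 and 42 with the 8 arrays and no replicate block, 142 and 129 with normexp, and 187 lower with probes well measured on all 8 arrays. The methods' test was run here on days 8 and 15 alone, whereas the study ran its ANOVA over the days of the culture. After Benjamini-Hochberg with the test of days 8 and 15, the counts were 0 and 0 (7851 probes had an unadjusted p below 0.05). They were 1465 and 1039 with no ratio, 690 and 708 with a ratio above 2, 449 lower with an adjusted p below 0.05, 139 and 899 with spike-in scaling, 0 and 1 within slide 1, and 1 and 0 within slide 2. Leaving out 1 culture gave 74 to 305 higher and 61 to 422 lower probes. With 3 cultures fewer arrays are fitted, yet without culture 10 both counts were larger (305 and 422). Why the counts differed was not tested for any setting.

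The median difference over all tested probes, 0.0087 ± 0.039 (SD over the cultures), was 0.058 with normexp, 0.070 with median scaling, 0.0745 with the deposited values and -0.35 with spike-in scaling. The interquartile range, on average 0.70, was 0.48 with normexp and 0.78 with no filter. The median in the culture left out was -1.31 for lower probes with normexp, and 2.84 and -2.77 with no filter.

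The differences of named probes that changed sign had not passed the test. They were, with slide, ATP-citrate -0.075 and nr3c1 0.0017; with normexp, calpain_1 -0.0082 and Wnt4b 0.010; with quantile normalization, GPX1 -0.034; with the percentile over well measured probes, ATP-citrate -0.023; and with the deposited values, GR 0.024 and nr3c1 0.042. Spike-in scaling gave calpain_1 -0.30, MSS1 -0.15, atg4b -0.11, hexokinase -0.017, ATP-citrate -0.35, Salmo_salar_Acyl-coenzyme -0.068, RXR -0.074, SOD2 -0.20, GPX1 -0.28, GST -0.088, Nrf2 -0.29, myogenine -0.19 and cyp1a3 -0.029. Fits within a slide compare different cultures, with 1 array of day 8 on slide 1. Within slide 1, calpain_1 was -0.084, MSS1 -0.00042, atg4b -1.21, glucose_transporter_1 -0.0896, lipoprotein -0.12, ATP-citrate -0.42, carnitine -1.05, PPARb -0.53, RXR -0.010, nr3c1 0.16, SOD2 -0.020, GPX1 -0.40, GST -0.15 and myogenine -0.40. Within slide 2, glucose_transporter_(Glut2) was 0.57, LDL 0.056, delta 0.019, GR 0.37, Catalase 0.035, HPGPX1 0.20, Nrf2 -0.21, Slow 0.13 and cyp1a3 -0.22. With 1 culture left out, ATP-citrate ranged from -0.14 to 0.15, GR from -0.28 to 0.088, calpain_1 from -0.016 to 0.14 and nr3c1 from -0.12 to 0.11. Without the replicate block, cathepsine and Wnt4a were the only named probes that no longer passed the adjusted p. Of the 2, only Wnt4a had been called. Probes well above background on no array of a day have only a bound there.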

Other observations

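One control probe outside the spike-in set was bright. ERCC-00062_278 was well above background on every array, at 2.49 to 4.01 at day 8 and 2.70 to 4.54 at day 15. Its differences were 0.91, -0.28, 0.53 and -0.50 in cultures 4, 8, 9 and 10. No other ERCC control was well above background on all arrays. ERCC-00077_121 was lower at day 15 in all 4 cultures, by 0.53 to 1.26.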
